A study of Homo sapiens with 8 samples.

Results

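The heat shock response chaperones described here are 10 genes: the transcription factor HSF1, the HSP70 genes HSPA8, HSPA1A and HSPA1B, the cochaperone genes DNAJB1, HSPH1 and BAG3, and HSP90AA1, HSPB1 and HSPD1. They were chosen by symbol as the regulator and standard readouts of cytosolic and mitochondrial protein stress, with earlier results of these data known, and all 10 were found among the 19124 genes listed in each library. Messenger RNA was sequenced from HCT116 and HT29, established human colorectal cancer lines. Each line received an siRNA against RPL9, RPL17 or RPL27, which encode proteins of the large ribosomal subunit, or a negative control siRNA (NC). All siRNAs were used at 15 nM with a lipid transfection reagent, and RNA was taken 48 h later, so every library, NC included, carries the transfection. There was 1 library per line and siRNA, 8 in all, and the labels do not tell whether they came from separate cultures.

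Heat shock factor 1 is the main transcription factor of the response to misfolded protein in the cytosol. It binds inverted repeats of a GAA unit, the heat shock element, in the promoters of chaperone genes. HSP70 proteins bind exposed hydrophobic stretches with the help of J-domain proteins, which start ATP hydrolysis, and of exchange factors, which release the nucleotide, while HSP90 finishes the folding of client proteins such as kinases. Loss of a ribosomal protein can leave its partners without a place in the ribosome, and the comparison asks whether such unbalanced ribosomal proteins go with a heat shock response.

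Promoter windows of members whose levels are described below are printed to show the letters of the heat shock element near their start sites. The windows are from RefSeq (GRCh38.p14), 5′ to 3′ on the gene's strand, and run from 250 bases before to 50 bases after an annotated start. Capitals mark each match to the 2-unit motifs GAANNTTC or TTCNNGAA, which read the same on both strands. Where the motifs overlap they form a run of 3 units of alternating direction, which holds 1 match to each of them.
HSPA8, chr11:123062087-123062386, minus strand: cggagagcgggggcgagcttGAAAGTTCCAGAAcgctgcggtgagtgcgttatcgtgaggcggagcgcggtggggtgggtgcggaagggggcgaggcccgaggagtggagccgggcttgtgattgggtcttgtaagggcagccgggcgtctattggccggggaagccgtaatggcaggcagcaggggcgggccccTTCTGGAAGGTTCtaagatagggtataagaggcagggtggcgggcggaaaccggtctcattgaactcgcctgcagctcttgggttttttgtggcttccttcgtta
HSP90AA1, chr14:102086995-102087294, minus strand: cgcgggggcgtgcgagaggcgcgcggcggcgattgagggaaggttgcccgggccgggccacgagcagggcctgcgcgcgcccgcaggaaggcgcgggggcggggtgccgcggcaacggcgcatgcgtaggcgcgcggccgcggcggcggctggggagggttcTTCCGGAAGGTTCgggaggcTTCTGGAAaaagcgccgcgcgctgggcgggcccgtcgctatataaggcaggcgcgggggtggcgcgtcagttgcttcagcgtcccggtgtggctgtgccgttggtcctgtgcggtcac
DNAJB1, chr19:14518348-14518647, minus strand: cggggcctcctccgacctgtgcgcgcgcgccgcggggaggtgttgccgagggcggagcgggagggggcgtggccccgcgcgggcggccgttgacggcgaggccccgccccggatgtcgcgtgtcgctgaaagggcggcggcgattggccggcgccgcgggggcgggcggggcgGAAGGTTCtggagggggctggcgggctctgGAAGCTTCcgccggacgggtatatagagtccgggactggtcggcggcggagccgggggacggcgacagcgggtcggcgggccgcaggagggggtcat
HSPA1A, chr6:31815293-31815592, plus strand: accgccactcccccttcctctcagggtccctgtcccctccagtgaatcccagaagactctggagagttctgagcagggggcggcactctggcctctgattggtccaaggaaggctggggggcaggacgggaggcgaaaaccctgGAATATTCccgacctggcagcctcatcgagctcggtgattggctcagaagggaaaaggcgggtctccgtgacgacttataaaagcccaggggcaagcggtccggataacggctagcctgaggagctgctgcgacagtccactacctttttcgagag
The HSPA8 window holds 2 runs of 3 units, at -230 and -55 from the start, and the HSP90AA1 window holds 1 at -88 and a further 2-unit match at -68. It lies at the downstream one of 2 annotated starts of HSP90AA1. DNAJB1 has 2 matches of 2 units, at -77 and -47, and HSPA1A has 1 at -106. Of the members with windows not printed here, HSPA1B has 1 match of 2 units at -105, HSPB1 has 1 at -182, and HSPD1 has 2 overlapping runs of 3 units, at -245 and -240. HSPH1 and BAG3 have 0 matches, which says only that these letters are not in these windows. HSP90AA1 and HSPD1 each have a second window with 0 matches, DNAJB1 has one with 0 and one with 1, and HSF1 was not searched. A match of 2 units occurs in 13.5% of all 35116 promoter windows of this length, and a match of 3 units in 0.49%.

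Facts of the libraries bear on every value below. In its own libraries each siRNA's target stood at 26.7% to 38.5% of NC in HCT116 and 13.7% to 18.7% in HT29, and at 29% to 34.1% of the mean of the other 2 RPL siRNA libraries of the same line. The siRNA against RPL17 went with less RPL27 too. In HCT116 its library held 4723 RPKM of RPL27, against 9280 RPKM with RPL9 siRNA and 7649 RPKM in NC. In HT29 the values were 4754, 10530 and 16205 RPKM. The RPL17 siRNA libraries were thus lower in more than their own target, and they enter the mean used for RPL27. The cause was not tested. Depth was estimated at 20.7 to 26.4 M (mega) reads per library. The HT29 NC library stood apart. Over 12021 genes the difference of this library from the rest correlated with transcript length at a rank correlation of -0.59, against 0.14 to 0.27 for each of the others, so short transcripts read high in it and long ones low. Comparisons with NC in HT29 rest on a library with this trend, so the mean differences of the 10 genes from NC are given both as deposited and after removal of each library's length trend (length-corrected). The 6 epithelial markers were all detected, although VIL1 was at 0 to 2.89 RPKM in HCT116, and the summed levels of fibroblast and endothelial markers stood at 254 to 439 and at 0.504 to 10.1 RPKM over the 8 libraries. Fibroblast signal was nearly all COL1A1. The leukocyte markers summed to 87 to 140 RPKM in HCT116 and 1939 to 3062 RPKM in HT29, nearly all of it LYZ. The part of these transcripts in the results was not tested.

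The deposited values are RPKM (reads scaled by transcript length and library size), which behave like sums over exons, so levels are compared between libraries and never between genes. When the 3 RPL siRNAs were averaged and set against NC over both lines, 0 of the 10 genes passed the limma test at an adjusted p under 0.05, beside 24 of 14281 genes tested, or 0.168%. All 10 genes passed the filter of a mean of at least 1 RPKM. Before adjustment, HSF1 and HSPH1 had a p under 0.05 (0.01073 and 0.02449), as did 24.6% of all genes. After length correction 2 of the 10 were called, HSF1 higher and HSP90AA1 lower, beside 4.79% of the 13832 genes then tested, and 7 had an unadjusted p under 0.05, beside 28.3%. A fit without 1 NC library carries no spread between NC libraries in its p, and it called 49% of all genes without HCT116 NC and 12.9% without HT29 NC. The 2 lines are the replicates of this test. Fewer cells and less RNA per cell cannot be told apart in bulk RNA, and neither was measured.

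**Figure D1:**
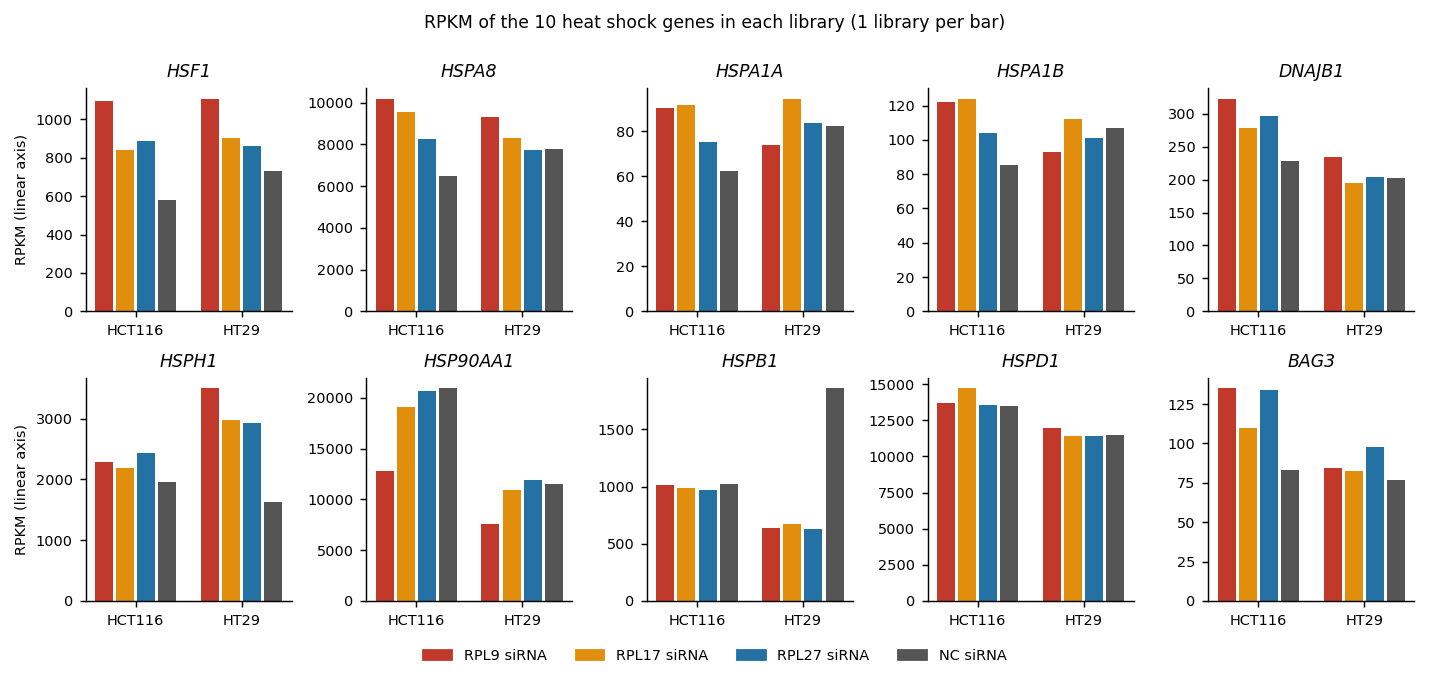
RPKM (linear axes from 0, a scale of its own for each gene) of the 10 heat shock genes in the 8 libraries, with 1 bar per library, no error bars since there is 1 library per bar, and the RPL9, RPL17 and RPL27 siRNA libraries left of NC in each line. HSF1 is lowest in NC in both lines, HSP90AA1 is lowest under RPL9 siRNA in both lines, and HSPB1 stands at 1859 RPKM in HT29 NC against 625 to 677 RPKM under the RPL siRNAs of that line.

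HSF1, the regulator of the set, stood highest under RPL9 siRNA and lowest in NC in both lines. In HCT116 its level was 1096, 841 and 888 RPKM under RPL9, RPL17 and RPL27 siRNA, against 578 RPKM in NC. The HT29 libraries had 1108, 903 and 861 RPKM under the same siRNAs, against 731 RPKM in NC. All 6 RPL siRNA libraries thus lay above the NC library of their line, at 145% to 190% of it in HCT116 and 118% to 152% in HT29. The mean log2 difference from NC was 0.54 (SE 0.15, 95% interval 0.18 to 0.90), with a limma adjusted p of 0.1232. After length correction it was 0.67 (SE 0.10), which passed at an adjusted p of 0.03019. With HT29 NC left out the difference was 0.69 (adjusted p 0.01121), and with HCT116 NC left out it was 0.38 (adjusted p 0.01294). After median-centring of the libraries HSF1 in HT29 stood at 0.19, -0.12 and -0.19 (log2) relative to NC under RPL9, RPL17 and RPL27 siRNA.

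HSPA8 encodes the constitutive HSP70 of the cytosol, which folds new polypeptides and uncoats clathrin. In HCT116 it stood at 10186, 9559 and 8248 RPKM under RPL9, RPL17 and RPL27 siRNA, against 6461 RPKM in NC. In HT29 it stood at 9298, 8324 and 7706 RPKM, against 7770 RPKM in NC. The 3 RPL siRNA libraries of HCT116 all lay above NC, while in HT29 the RPL27 siRNA library lay just below it. The mean difference was 0.32 (SE 0.14; limma adjusted p 0.22), and 0.40 (SE 0.08; adjusted p 0.05106) after length correction. It was 0.52 without HT29 NC, past the threshold at 0.00719, and 0.12 without HCT116 NC (adjusted p 0.118). In both lines the order was RPL9, then RPL17, then RPL27 siRNA. Reads of HSPA8 may be shared with 17 annotated pseudogenes named after it, so its level is uncertain in absolute terms.

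HSPA1A and HSPA1B, the classic heat-inducible HSP70 genes, are neighbours on chromosome 6 and their coding sequences are identical at 1922 of 1926 positions, with an identical run of 1709 nt. How the authors' counting split reads between them is not given, so the 2 genes are read as 1 signal. HSPA1A stood at 90.2, 91.4 and 75.1 RPKM under RPL9, RPL17 and RPL27 siRNA in HCT116, against 62.2 RPKM in NC. The same gene stood at 73.9, 94.4 and 83.7 RPKM in HT29, against 82.3 RPKM in NC. HSPA1B stood at 122, 124 and 104 RPKM in HCT116 against 85.4 RPKM in NC, and at 93.2, 112 and 101 RPKM in HT29 against 107 RPKM in NC. In HCT116 all 3 RPL siRNA libraries lay above NC for both genes, at 121% to 147% of NC for HSPA1A. In HT29 the RPL siRNA libraries lay on both sides of NC, and the RPL9 siRNA library was the lowest of the 4 for both. After median-centring both genes lay below NC in HT29. HSPA1A was then at -0.56, -0.23 and -0.40 (log2) under RPL9, RPL17 and RPL27 siRNA, and HSPA1B at -0.61, -0.37 and -0.52. The ratio of HSPA1A to HSPA1B was 0.723 to 0.741 in HCT116 and 0.766 to 0.846 in HT29. Mean differences from NC were 0.24 for HSPA1A (SE 0.21, 95% interval -0.29 to 0.76; limma adjusted p 0.5053) and 0.18 for HSPA1B (SE 0.21, 95% interval -0.34 to 0.70; adjusted p 0.6051). After length correction the values were 0.31 for HSPA1A (adjusted p 0.3007) and 0.25 for HSPA1B (0.3774). The intervals as deposited hold both 0 and a rise by more than 0.5, so a moderate change was not resolved. HSPA6, an HSP70 gene that is strictly inducible and nearly silent in unstressed cells, stood at 0 to 0.0669 RPKM in all 8 libraries.

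DNAJB1, the J-domain protein that feeds clients to inducible HSP70, stood at 323, 279 and 296 RPKM in HCT116 against 228 RPKM in NC. In HT29 it stood at 234, 195 and 204 RPKM, against 202 RPKM in NC. Its 3 RPL siRNA libraries lay above NC in HCT116 and on both sides of it in HT29, and the mean difference was 0.22 (SE 0.17; limma adjusted p 0.4215). After length correction it was 0.33 (SE 0.13; adjusted p 0.1602), with all 6 RPL siRNA libraries above NC. After median-centring DNAJB1 in HT29 lay below NC, at -0.20, -0.48 and -0.41 under RPL9, RPL17 and RPL27 siRNA. After quantile normalization the values there were -0.15, -0.42 and -0.32.

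BAG3 encodes an exchange factor that steers HSP70 clients towards autophagy. It stood at 135, 110 and 134 RPKM under RPL9, RPL17 and RPL27 siRNA in HCT116, against 83.2 RPKM in NC. The HT29 libraries had 84.4, 82.6 and 97.9 RPKM, against 76.5 RPKM in NC. All 6 RPL siRNA libraries lay above their NC library, by 0.40 to 0.69 (log2) in HCT116 and 0.11 to 0.35 in HT29, where the median of all genes itself lay 0.17 to 0.20 above NC. Against NC the mean difference of BAG3 was 0.39 (SE 0.20, 95% interval -0.09 to 0.88; limma adjusted p 0.2612), and after length correction it was 0.46 (SE 0.17; adjusted p 0.1411). After median-centring BAG3 in HT29 lay below NC, at -0.27, -0.32 and -0.08 under RPL9, RPL17 and RPL27 siRNA.

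HSPH1, the HSP110 exchange factor of HSP70, stood at 2286, 2185 and 2428 RPKM in HCT116 against 1956 RPKM in NC. In HT29 it stood at 3498, 2969 and 2931 RPKM, against 1633 RPKM in NC. All 6 RPL siRNA libraries lay above the NC library of their line, as for 18% of all genes. They came to 112% to 124% of NC in HCT116 and 180% to 214% in HT29. The mean difference was 0.58 (SE 0.19; limma adjusted p 0.159). It was 0.93 without HCT116 NC, past the threshold at 0.0006456, and 0.23 without HT29 NC (adjusted p 0.1841). Its transcript is 5191 nt long, at a length where the median gene of HT29 stood 0.79 above NC, and after length correction the mean difference was 0.31 (SE 0.10; adjusted p 0.1108). The RPL siRNA effect in HCT116 minus that in HT29 was -0.70 for HSPH1 (SE 0.18; limma interaction adjusted p 0.03014, beside 22.9% of all genes called). After length correction that difference was -0.08 (95% interval -0.52 to 0.36, limma adjusted p 0.8323), beside 10.8% of genes called. Each line has 1 NC library in this interaction test, so its p carries no spread between NC libraries. As deposited, the difference between lines was -0.70 without the HCT116 RPL9 siRNA library and -0.67 without the HCT116 RPL17 siRNA library. The size thus held there, while the call was lost (limma adjusted p 0.05788 and 0.05382).

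HSPB1 encodes HSP27, a small heat shock protein that holds unfolding clients without ATP. It stood at 1016, 989 and 967 RPKM under RPL9, RPL17 and RPL27 siRNA in HCT116, against 1026 RPKM in NC. In HT29 it stood at 638, 677 and 625 RPKM, against 1859 RPKM in NC. HCT116 showed nearly level values at 94.2% to 99% of NC, while the HT29 RPL siRNA libraries came to 33.6% to 36.4% of NC. The mean difference over both lines was -0.79 (SE 0.33; limma adjusted p 0.2107) and -0.42 after length correction (adjusted p 0.1513). It was -1.52 without HCT116 NC, past the threshold at 6.795e-05, and -0.05 without HT29 NC (adjusted p 0.7441). The difference of the RPL siRNA effect, HCT116 minus HT29, was 1.47 (SE 0.16; limma interaction adjusted p 0.001095). HSPB1 has a transcript of 909 nt, and genes of 704 and 1019 nt, the medians of the 2 shortest of 20 length bins, stood at medians of -0.76 and -0.65 in HT29. HSPB1 at -1.52 lay below the lower quartiles of both bins (-1.16 and -1.06). After length correction it stood at -0.77, -0.64 and -0.76 in HT29, and the difference between lines was 0.61 (95% interval 0.22 to 1.00; adjusted p 0.05686). The effect of each line in this contrast is measured against 1 NC library. Its p therefore holds the spread among the RPL siRNAs and carries no spread between NC libraries.

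**Figure D2:**
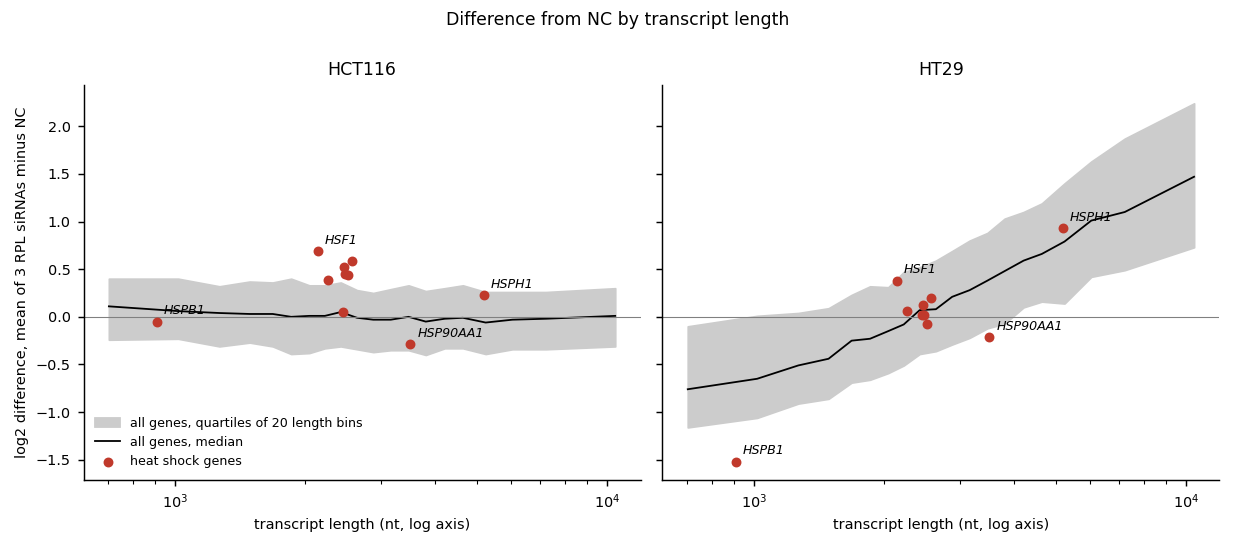
Transcript length (nt, log axis) against the log2 difference of the mean of the 3 RPL siRNAs from NC in HCT116 and HT29, where the line and band are the median and quartiles of all genes in 20 length bins and the points are the 10 heat shock genes. In HT29 the median runs up to 1.47 in the longest bin, HSPH1 at 0.93 lies within the band, and HSPB1 at -1.52 lies below it.

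HSPD1, the mitochondrial HSP60 chaperonin, stayed closest to NC of the 10 genes in the mean over both lines, as deposited and after length correction. In HCT116 it stood at 13710, 14709 and 13548 RPKM, against 13506 RPKM in NC. In HT29 it stood at 11950, 11437 and 11395 RPKM, against 11461 RPKM in NC. As deposited, no RPL siRNA library differed from the NC of its line by more than 0.12 (log2), and the mean difference was 0.03 (95% interval -0.24 to 0.30; limma adjusted p 0.8642). After length correction the mean difference was 0.11 (adjusted p 0.3116). In HT29 the distance from NC turned on the scaling of the libraries, with 0.15 to 0.23 after length correction, 0.58 to 0.66 after quantile normalization and -0.44 to -0.35 after median-centring. The level of HSPD1 may share reads with 17 annotated pseudogenes.

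Within HCT116, 8 of the 10 genes were above NC in all 3 RPL siRNA libraries, beside 33% of all genes, and the other 2, HSP90AA1 and HSPB1, were below NC in all 3, beside 32.4%. These 3 comparisons share the NC library, so the counts are not independent. The counts also take in values near 0, such as HSPD1 at 0.00 under RPL27 siRNA and HSPB1 at -0.01 under RPL9 siRNA. HSPA1A and HSPA1B, read as 1 signal above, enter the counts and medians of the 10 genes as 2. The median of the 10 genes was 0.50, 0.34 and 0.30 (log2) above NC under RPL9, RPL17 and RPL27 siRNA in HCT116, where all genes had medians of 0.01, -0.00 and 0.02. In HT29 the medians were 0.10, 0.08 and 0.02, beside 0.17, 0.20 and 0.19 for all genes. After length correction the 10 genes had medians of 0.25, 0.21 and 0.16 in HT29, beside 0.19, 0.22 and 0.21. Only HSF1, HSPH1 and BAG3 were above NC in all 3 RPL siRNA libraries of HT29, beside 46.6% of genes, and HSPB1 was below in all 3, beside 32.7%. Over both lines 3 genes were thus above NC in all 6 RPL siRNA libraries, beside 18% of genes, and 1 was below in all 6, beside 13%. After length correction 7 genes were above NC in all 6 RPL siRNA libraries, beside 20.6% of all genes: HSF1, HSPA8, HSPA1A, DNAJB1, HSPH1, HSPD1 and BAG3. HSP90AA1 and HSPB1 were then below NC in all 6, beside 12.9%. Some of these values were near 0, such as HSPA1A at 0.00 under RPL9 siRNA in HT29. In HCT116 HSPD1 was at 0.02 under RPL9 and RPL27 siRNA, and HSP90AA1 at -0.01 under RPL27 siRNA. Directions in HT29 turned with the scaling. After median-centring only HSPH1 was above NC in all 3 RPL siRNA libraries of HT29, and after quantile normalization HSF1, HSPA8, HSPH1 and HSPD1 were. In HCT116 the signs held under both scalings, except for HSPD1 and HSP90AA1. HSPD1 stood at -0.10 and -0.16 under RPL9 and RPL27 siRNA after quantile normalization. HSP90AA1 stood at 0.01 under RPL27 siRNA after median-centring, where HSPB1 under RPL9 siRNA lay just below NC (-0.00). Sizes stayed modest. A 2-fold difference was reached by 0 of the 10 genes under any siRNA in HCT116, beside 14.8%, 11.5% and 12.6% of all genes for RPL9, RPL17 and RPL27 siRNA. In HT29 HSPH1 was more than 2-fold higher under RPL9 siRNA and HSPB1 more than 2-fold lower under all 3, beside 35.1%, 32.8% and 33.1% of all genes, and neither remained past 2-fold after length correction, where 27.9%, 25.4% and 25% of genes did.

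**Figure D3:**
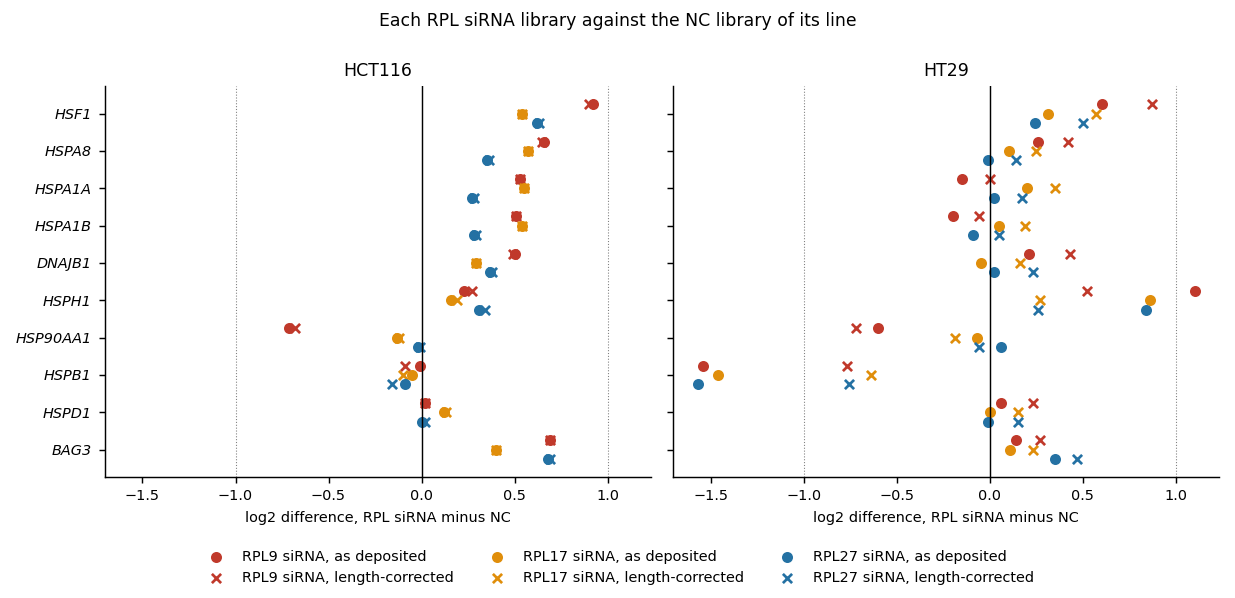
Log2 difference of each RPL siRNA library from the NC library of its line for the 10 heat shock genes, as deposited (circles) and length-corrected (crosses), with dotted lines at a 2-fold difference. In HCT116 the points lie to the right of 0 for 8 of 10 genes, HSPD1 under RPL27 siRNA only just (0.00). The correction hardly moves them there, while in HT29 it moves HSPB1 under RPL9 siRNA from -1.54 to -0.77 and HSPH1 from 1.10 to 0.52.

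Each siRNA was also set against NC over both lines. Under RPL9 siRNA limma called 0 of the 10 genes, beside 0.007% of all genes, and 4 had an unadjusted p under 0.05, beside 20.4%. These were HSF1 at 0.76 (SE 0.18; adjusted p 0.1379), HSPA8 at 0.46 (SE 0.17; adjusted p 0.2211), HSPH1 at 0.66 (SE 0.24; adjusted p 0.2162) and HSP90AA1 at -0.66 (SE 0.13; adjusted p 0.1154). After length correction HSF1 at 0.88 (adjusted p 0.03837) and HSP90AA1 at -0.70 (adjusted p 0.0307) passed, beside 2.86% of genes. Under RPL17 and RPL27 siRNA 0 of the 10 genes passed, beside 0.014% and 0% of all genes, and 0 had an unadjusted p under 0.05, beside 15.7% and 16.7%. HSF1 was at 0.42 and 0.43 (SE 0.18 each) in these 2 comparisons, and at 0.55 and 0.56 after length correction (adjusted p 0.1163 and 0.09479).

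HSP90AA1, the stress-inducible cytosolic HSP90, set RPL9 siRNA apart from the other RPL siRNAs. In HCT116 it stood at 12763, 19093 and 20660 RPKM under RPL9, RPL17 and RPL27 siRNA, against 20945 RPKM in NC. In HT29 it stood at 7550, 10911 and 11928 RPKM, against 11473 RPKM in NC. The RPL9 siRNA library was the lowest of its line both times, at 60.9% and 65.8% of NC and at 64.2% and 66.1% of the mean of the other 2 RPL siRNAs in HCT116 and HT29, while RPL17 and RPL27 siRNA stayed at 91.2% to 104% of NC. The mean difference of the 3 RPL siRNAs from NC was -0.25 (SE 0.11; limma adjusted p 0.221), and -0.30 after length correction, past the threshold at 0.04549. It was -0.21 without HCT116 NC (adjusted p 0.01042) and -0.29 without HT29 NC (0.01602).

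A fit of the 6 RPL siRNA libraries alone, which does not use NC, compared every RPL siRNA with the average of the remaining 2, with the lines as replicates. HSP90AA1 was lower under RPL9 siRNA by -0.62 (SE 0.03, 95% interval -0.70 to -0.54; limma adjusted p 0.003678), with the 5th smallest p of 14217 genes, and 1 of 10 genes was called beside 0.816% of all genes. Under RPL27 siRNA HSP90AA1 was higher by 0.40 (95% interval 0.32 to 0.48; adjusted p 0.0101), again the 1 gene of 10, beside 1.39%. Under RPL17 siRNA HSP90AA1 stood at 0.22 (adjusted p 0.05789), with 0 of 10 called beside 0.464% of all genes and 2 of 10 at an unadjusted p under 0.05, beside 18.2%. Since each siRNA is compared with the other 2, a low value under RPL9 siRNA enters the differences of RPL17 and RPL27. The RPL9 difference kept its size, -0.66 to -0.60, in 16 alternative settings and its call in 12. It lost the call with no filter on low values, with limma without a variance trend, with all 8 libraries in the fit (adjusted p 0.9154), and without the HCT116 RPL17 siRNA library (adjusted p 0.05129). The RPL27 difference lost its call without that library (adjusted p 0.08099), without HCT116 RPL27 (0.1774) and without HT29 RPL27 (0.1169).

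The HSP90 paralogs gave other values in the same comparison. HSP90AB1, the constitutive cytosolic HSP90, stood at 23349, 23902 and 25336 RPKM under RPL9, RPL17 and RPL27 siRNA in HCT116 against 24184 RPKM in NC, and at 17278, 16702 and 18094 RPKM in HT29 against 18839 RPKM in NC. Its RPL9 difference from the other RPL siRNAs was -0.04 (SE 0.03; limma adjusted p 0.5136). HSP90B1, of the endoplasmic reticulum, stood at -0.22 (SE 0.03; adjusted p 0.05625), and TRAP1, of mitochondria, at 0.05 (SE 0.06; adjusted p 0.7143). The difference between HSP90AA1 and its paralogs was not tested.

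HSF1 and HSPA8 stood on the other side. Under RPL9 siRNA HSF1 was at 0.34 (SE 0.07, 95% interval 0.18 to 0.50; limma adjusted p 0.07671) and HSPA8 at 0.21 (SE 0.04, 95% interval 0.11 to 0.30; adjusted p 0.07358) against the other RPL siRNAs. HSPA8 was at -0.22 under RPL27 siRNA (SE 0.04; adjusted p 0.06068). DNAJB1 was at 0.20 under RPL9 siRNA (SE 0.09; adjusted p 0.2787). The remaining members, HSPA1A, HSPA1B, HSPH1, HSPB1, HSPD1 and BAG3, lay between -0.21 and 0.21 in all 3 of these comparisons. Correlations were taken over the 6 RPL siRNA libraries after subtraction of the mean of each line. HSF1 had a Pearson r of 0.93 with DNAJB1, 0.76 with HSPA8 and -0.97 with HSP90AA1. With the remaining members it was 0.64 (HSPH1), 0.23 (HSPB1), 0.14 (BAG3), 0.01 (HSPD1), -0.22 (HSPA1B) and -0.27 (HSPA1A). These values are a description over 6 libraries that share the 3 siRNAs.

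**Figure D4:**
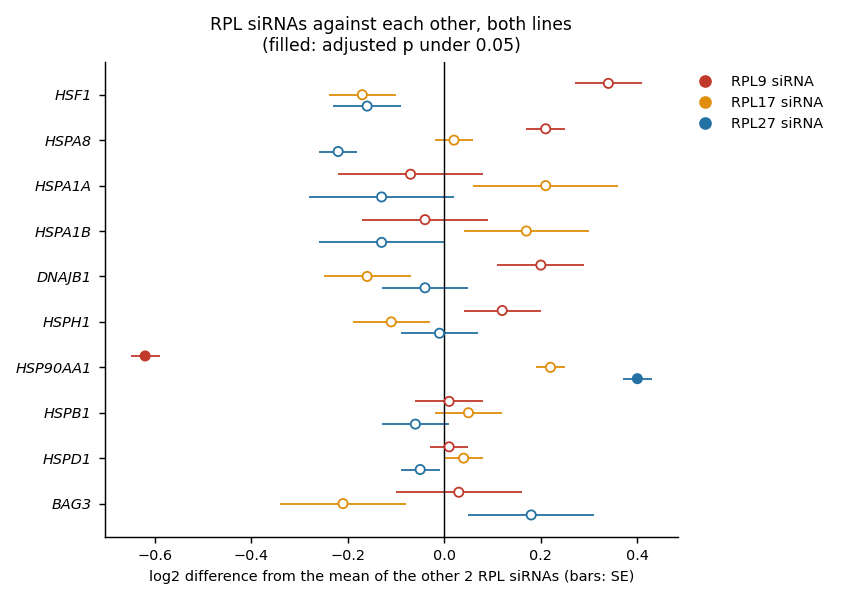
Log2 difference of each RPL siRNA from the mean of the other 2 over both lines for the 10 heat shock genes, with bars of 1 SE and filled points where the limma adjusted p is under 0.05. HSP90AA1 is filled at -0.62 for RPL9 siRNA and at 0.40 for RPL27 siRNA, and no other point is filled.

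The lines also differed under the RPL siRNAs. In the fit of the 6 RPL siRNA libraries 7 of the 10 genes passed between HCT116 and HT29, beside 23.3% of all genes, with the 3 siRNAs as replicates. HSP90AA1 was higher in HCT116 by 0.79 (SE 0.03; limma adjusted p 0.0001078), with 12763 to 20660 RPKM in HCT116 against 7550 to 11928 RPKM in HT29. HSPB1 was higher by 0.62 (adjusted p 0.002145), DNAJB1 by 0.50 (0.0108), BAG3 by 0.51 (0.03272), HSPD1 by 0.27 (0.007513) and HSPA8 by 0.14 (0.03897). HSPH1 was lower in HCT116 by -0.44 (SE 0.07; adjusted p 0.009172), with 2185 to 2428 RPKM in HCT116 against 2931 to 3498 RPKM in HT29 and no overlap. HSF1 did not separate the lines, at -0.02 (95% interval -0.17 to 0.13; adjusted p 0.8056). HSPA1A at 0.03 (SE 0.14) and HSPA1B at 0.19 (SE 0.13) did not pass either. The count was 3 without the HCT116 RPL17 siRNA library and 4 without each of the HCT116 RPL27, HT29 RPL17 and HT29 RPL27 siRNA libraries, and HSP90AA1 kept its call in all 16 alternative settings. The NC libraries, which this fit leaves out, held 20945 RPKM of HSP90AA1 in HCT116 against 11473 RPKM in HT29, in the same direction as the RPL siRNA libraries. For 3 of the 7 genes the NC libraries ran the opposite way, with 1026 against 1859 RPKM of HSPB1, 6461 against 7770 RPKM of HSPA8 and 1956 against 1633 RPKM of HSPH1. These NC values are as deposited. In HT29 NC short transcripts, such as that of HSPB1, read high and long ones, such as that of HSPH1, read low. The part of this trend in the opposite directions was not tested.

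Other genes of protein folding were counted in lists. Of 110 genes in 9 lists 101 were tested, and for the average RPL siRNA effect limma called 0 of them, with 24 at an unadjusted p under 0.05, where 24.6% of all genes had one. After length correction 2 of them were called higher and 4 lower, beside 2.88% and 1.9% of all genes. All genes had a median of 0.10 in this comparison and the 10 heat shock genes one of 0.23. The other heat shock induced genes had a median of -0.06 over 19 tested of 22, with 7 above 0 and 12 below. Among them HSPA4L, an HSP110 relative, stood at 1.19 (adjusted p 0.09057 in limma), UBB, a ubiquitin gene, at -0.79 and CACYBP at -0.70. HSPA4L had 787, 878 and 782 RPKM under RPL9, RPL17 and RPL27 siRNA in HCT116 against 509 RPKM in NC, and 736, 795 and 708 RPKM in HT29 against 229 RPKM in NC. After length correction HSPA4L was called at 0.60 (limma adjusted p 0.04027), and the median of the list was 0.03, beside 0.12 for all genes.

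Factors and regulators of the response had a median of -0.13 over 10 genes, from SIRT1, a deacetylase of HSF1, at 0.61 and DAXX at 0.14 to STUB1, the ubiquitin ligase that works with HSP70, at -0.44 and HSF2BP at -1.02. HSF2BP (SE 0.65) was near the floor, at 0 to 5.53 RPKM, with 0 under RPL9 and RPL27 siRNA in HCT116. The 18 cochaperones of HSP70 and HSP90 had a median of -0.03, from DNAJB14 at 0.89 and BAG4 at 0.59 to BAG1 at -0.35 and PPID at -0.36. Of 7 other small heat shock protein genes only HSPB11, which is now known mainly as a part of cilium transport, passed the filter, at -0.93, and at -0.57 after length correction, where it was called (limma adjusted p 0.04382). The small heat shock gene CRYAB was at 0 to 0.92 RPKM. The 14 genes of the cytosolic chaperonin and prefoldin had a median of -0.17, from CCT5 and CCT6A at 0.07 each to TCP1 at -0.40 and PFDN4 at -0.52. Ribosome-bound chaperones, which meet new chains at the exit tunnel, had a median of -0.23 over 4 genes, with DNAJC2 at 0.34 and HSPA14 at -0.24. DNAJC2, which brings HSP70 to the ribosome, was called at 0.53 after length correction (limma adjusted p 0.03928). Mitochondrial chaperones and proteases had a median of -0.02 over 10 genes, from DNAJA3 at 0.34 and GRPEL2 at 0.31 to LONP1 at -0.48 and CLPP at -0.51. After length correction the medians of these lists were -0.10 for factors and regulators, 0.11 for cochaperones, 0.06 for chaperonin and prefoldin, 0.02 for ribosome-bound chaperones and 0.05 for mitochondrial chaperones and proteases.

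Chaperones of the endoplasmic reticulum had the lowest median of lists with more than 1 gene tested, -0.53 over 15 genes, with 4 above 0 and 11 below. DNAJC3 at 0.88 and CANX at 0.50 were the highest, and SDF2L1 at -0.85 and CRELD2 at -0.93 the lowest. After length correction 3 of the 15 were called lower by limma, beside 1.9% of all genes, and the median of the list was -0.39. The 3 were HSP90B1 at -0.65, HSPA5 at -0.64 and PDIA3 at -0.64, with limma adjusted p values of 0.02095, 0.03292 and 0.03135. HSPA5, the HSP70 of the endoplasmic reticulum, stood at 2603, 2872 and 3070 RPKM in HCT116 against 4009 RPKM in NC, and at 2389, 2400 and 2690 RPKM in HT29 against 3691 RPKM in NC. All 6 RPL siRNA libraries lay below the NC library of their line for HSPA5, as for 13% of all genes. Oxidative and metal stress genes had a median of 0.09 over 10 genes, from TXNRD1 at 0.82 and GCLM at 0.65 to MT1X at -0.51 and MT1F at -1.49, and a median of 0.09 after length correction.

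**Figure D5:**
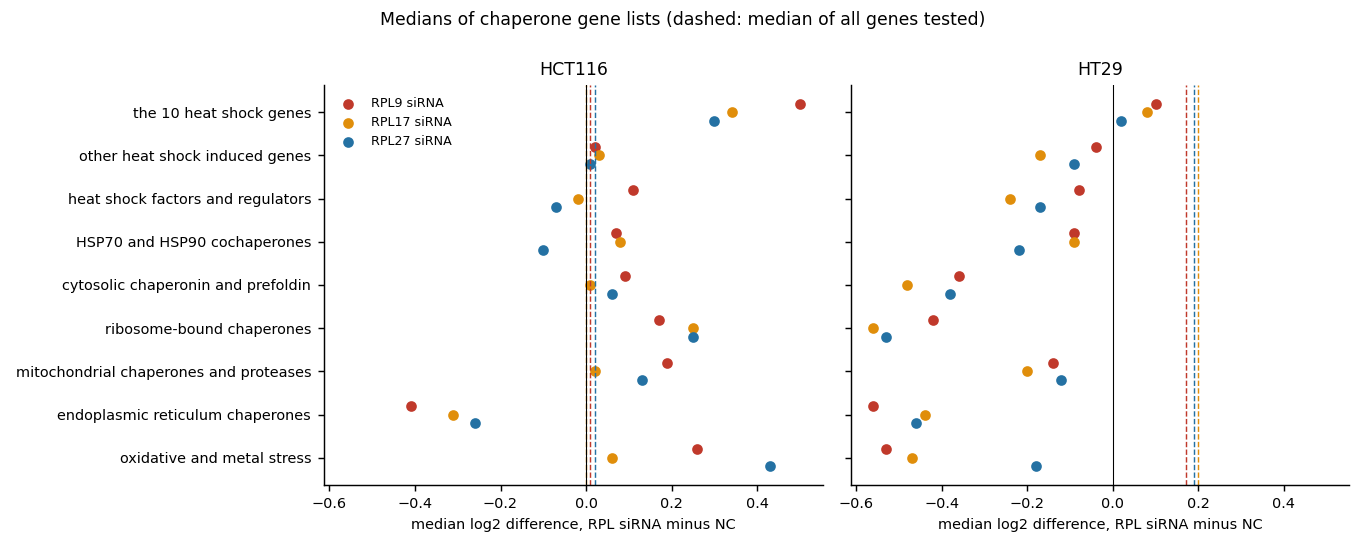
Median log2 difference of each RPL siRNA library from the NC library of its line for the 10 heat shock genes and 8 lists of related genes, with dashed lines at the median of all genes tested. In HCT116 the 10 heat shock genes lie at 0.30 to 0.50, and the endoplasmic reticulum chaperones lie below 0 in all 6 comparisons.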

How the data were processed

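The authors deposited RPKM per gene symbol for 8 libraries; per the submitters' processing notes CASAVA 1.8.2 and TopHat2 2.0.9 were used with hg19. Sources used here do not give the rule of read assignment. No counting interval is given, since no read counts were used, and depth is a rough estimate from 1197 single-exon genes, of whose low values 51.1% to 58.2% were whole reads within 0.05.

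Values were taken as log2(RPKM + 1), a scale that understates changes of low genes, and the 14281 genes averaging 1 RPKM or more were tested with limma 3.58.1 (trend) in R 4.3.3, two-sided, with Benjamini-Hochberg adjustment over all genes and a threshold of 0.05. Terms were line and siRNA over 8 libraries, or over the 6 RPL siRNA libraries for comparisons without NC (14217 genes). The difference of the effect between lines came from an interaction model with the RPL siRNAs pooled, so that within a line they stand as replicates. With 1 NC library per line, the p of that model holds the spread among the RPL siRNAs and none between NC libraries. P-values measure the spread between these libraries, which may be technical.

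The members and the 9 gene lists were chosen with earlier results of these data known. All 10 members are named, and for each list the genes past the threshold or else the 2 highest and 2 lowest, of which 1 gene is not reported here. Settings varied in turn were the pseudocount (0.1 and 5), the filter (none, or 5 RPKM), the scaling (quantile normalization or median-centring), the variance model (limma without trend, or robust with statmod 1.5.0), the model terms, the libraries (each left out) and the dependence on transcript length, taken out of each library (spline with 5 degrees of freedom). Lengths came from GENCODE (GRCh38) through RefSeq identifiers, for 18464 of 19124 genes and 13832 of those tested. Lists without HT29 NC and after length correction were chosen after seeing the data. On simulated data with 14281 genes the mean contrast found 0% of genes changed by 0.5 or 1 (log2). It found 50% of those changed by 2. The RPL9 siRNA contrast with the other RPL siRNAs found 0%, 19% and 65.5% of genes changed by 0.5, 1 and 2. In the data this contrast called HSP90AA1 at -0.62, so the simulated recovery is only a rough guide to these data.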

Additional observations from a re-analysis of the deposited data

Results flagged for a closer look

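The effect of the RPL siRNAs differed between the lines for 2 of the 10 genes in the interaction test, beside 22.9% of all genes. For HSPB1 the effect in HCT116 minus that in HT29 was 1.47 (log2; limma adjusted p 0.001095), with all 3 RPL siRNA libraries below NC in both lines. For HSPH1 it was -0.70 (adjusted p 0.03014), with all 3 above NC in both lines. After length correction the values were 0.61 and -0.08, past the threshold for neither gene. Each line has 1 NC library in this test, so its p carries no spread between NC libraries.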

How the results depend on the processing

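The labels give no replicate numbers to pair libraries by. Every model but one had the line as a term, which sets each RPL siRNA library against the NC library of its line. Counts of the 10 genes called by limma depended on the NC libraries. Against NC the count was 0 for the mean and for each RPL siRNA as reported. Length correction gave 2 for the mean and 2 for RPL9 siRNA. With 1 library left out it was 0 to 4 for the mean, 0 to 5 for RPL9 siRNA and 0 to 2 for RPL17 and for RPL27 siRNA. Among these fits only those without an NC library gave more than 0: without HCT116 NC 4, 5, 2 and 2, beside 49%, 46.6%, 44.5% and 44.9% of all genes, and without HT29 NC 3, 3, 2 and 2, beside 12.9%, 15.2%, 6.85% and 10%. Over all genes the mean contrast called 24 as reported, 662 after length correction, 1841 without HT29 NC, 6977 without HCT116 NC and 0 without any 1 RPL siRNA library. It called 10 and 9 with pseudocounts of 0.1 and 5, 6 with no filter, 83 after quantile normalization, 7 after median-centring, 12 without trend, 12 with robust variances, 693 with the RPL siRNAs as 1 group and 5 without a line term.

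Among the RPL siRNAs, no filter, limma without trend and all 8 libraries each gave 0 for RPL9 siRNA and 0 for RPL27 siRNA, where 1 each was reported. A mean of at least 5 RPKM gave 2 for RPL27 siRNA and 1 for RPL17 siRNA, and quantile normalization and length correction gave 1 for RPL17 siRNA, where 0 was reported. Leaving out 1 library gave 0 to 1 in each of these. The call was lost without HCT116 RPL17 for RPL9 siRNA, and without HCT116 RPL17, HCT116 RPL27 or HT29 RPL27 for RPL27 siRNA, and 1 was gained without HT29 RPL9 for RPL17 siRNA. Between lines 7 became 3 with no filter, 2 without trend and 1 with all 8 libraries, and 3 to 6 with 1 library left out. The interaction count of 2 became 1 with no filter, 1 without trend, 4 with median-centring and 0 after length correction, and 1 to 2 with 1 RPL siRNA library left out; it cannot be fitted without an NC library. Under quantile normalization the interaction of HSPD1 turned to -0.67 (adjusted p 0.01548), against 0.03 as reported. The cause was not tested.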

Other observations

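Listed genes outside the 10, those of oxidative and metal stress among them, also separated the lines under the RPL siRNAs. In the limma fit of the 6 RPL siRNA libraries 40 of the 101 listed genes were called higher in HCT116 and 6 lower, beside 11.4% and 11.8% of all genes. The cytosolic chaperonin and prefoldin list had 8 of 14 genes higher and 0 lower in HCT116, among them TCP1 by 0.49 (adjusted p 0.001366), CCT3 by 0.45 (0.0008815) and CCT8 by 0.45 (0.001221), subunits of the ring that folds actin and tubulin. Mitochondrial chaperones and proteases had 8 of 10 higher and 0 lower, among them LONP1 by 0.47 (0.007753). The other heat shock induced genes had 9 of 19 higher and 0 lower, among them HSP90AB1 by 0.48 (0.0004283) and CHORDC1 by 0.50 (0.003206). Of 15 endoplasmic reticulum chaperones 4 were higher in HCT116, CALR by 0.24 (0.01704), HSPA5 by 0.19 (0.0376), MANF by 0.33 (0.03042) and SIL1 by 0.41 (0.04456). The 3 called lower in HCT116 were the disulfide isomerases PDIA6 by -0.61 (0.0008753), PDIA3 by -0.32 (0.003768) and PDIA4 by -0.29 (0.01573). The NC libraries are not in this fit. Between HCT116 and HT29 they ran the same way for some of these genes, such as TCP1 (4738 against 3957 RPKM). For others they ran the opposite way, such as CALR (5872 against 7165 RPKM). These NC values are as deposited, and the HT29 NC library carries the length trend. The genes named here were picked after their values were seen.

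Of 10 listed genes of oxidative and metal stress, limma called 1 under RPL9 siRNA, 2 under RPL17 siRNA and 3 under RPL27 siRNA against the other RPL siRNAs, beside 0.816%, 0.464% and 1.39% of all genes. NQO1, a quinone reductase, was at -0.75 under RPL9 siRNA (limma adjusted p 0.04604) and 0.93 under RPL27 siRNA (0.02196). SLC7A11, the cystine transporter, was at 0.93 under RPL27 siRNA (0.03856), and the metallothionein gene MT2A at 0.56 (0.03452). HMOX1, heme oxygenase 1, was at -1.28 (0.0471) and MT1E, also a metallothionein gene, at 0.88 (0.02658) under RPL17 siRNA. HYOU1, an HSP110 relative of the endoplasmic reticulum, was at -0.42 under RPL9 siRNA (0.04592). HYOU1 was picked after its values were seen.

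Genes were ranked by Pearson r over the 8 libraries, after subtraction of the mean of each line. The heat shock genes described here were left out of the ranking. The genes with the pattern most like that of HSPA1A were then MKRN3 (0.989), NOXO1 (0.974) and PLCXD1 (0.968). For DNAJB1 they were NR1H2 (0.991), DESI1 (0.990) and RBM34 (0.987), and for HSPH1 NFATC3 (0.995), CAMK2D (0.992) and XPO5 (0.992). These are the highest of the 14281 genes, apart from those left out, over 8 libraries, given as a description. HSPA1B, which was left out, had an r of 0.98 with HSPA1A. The 8 libraries include HT29 NC with its length trend. Over the 6 RPL siRNA libraries alone other genes ranked highest, THEM6 (0.999) for HSPA1A, ZZEF1 (0.999) for DNAJB1 and GALNT18 (0.995) for HSPH1.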
